A study of Mus musculus with 12 samples.

Results

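Expression of 8 genes of the mesenchyme and its extracellular matrix was described in mouse germ cells and their cultured counterparts. They were the fibrillar collagen genes Col1a1, Col1a2 and Col3a1, the matricellular genes Postn and Sparcl1, the smooth muscle actin gene Acta2, and the transcription factor genes Twist1 and Foxc2. Members were the probe sets whose platform annotation named 1 of these genes and no other gene; of several for a gene, the one brightest on average over the 12 arrays was used. These 8 were among 18194 genes measured on the arrays, and all 8 were among the 13436 genes tested, those with at least 2 arrays above 4.81, the median of all values. The study set primordial germ cell-like cells (PGCLCs), which are induced in culture from embryonic stem cells, beside primordial germ cells (PGCs) of the embryo. Of 6 groups with 2 arrays each, d3ag6 cells were female PGCLCs of culture day 3 that were then kept for 6 days in aggregates with female E12.5 gonadal somatic cells. The d6F and d6M cells were female and male PGCLCs of day 6, and d3 cells were female PGCLCs of day 3. All 4 PGCLC groups were of C57BL/6 background and carried the BVSC transgenes, a Blimp1-mVenus and a stella-ECFP reporter. The E12.5 PGCs were female and the E9.5 PGCs of unknown sex. Both came from crosses of C57BL/6 males with the stella-EGFP transgene and BDF1 females, so they were of mixed background. Every sample was sorted by reporter fluorescence, and cells that share a reporter's signal pass such a sort whatever their type. The number of stem cell lines and of pooled embryos was not given in the sources used here. Aggregation and longer culture cannot be told apart in d3ag6 cells, nor strain and culture between PGCLCs and PGCs.

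Type I and type III collagen are the main fibre-forming proteins of loose connective tissue. Mesenchymal cells secrete them as triple helices, which are trimmed and crosslinked outside the cell, and matricellular proteins such as periostin tune how cells adhere to the fibres. Twist1 and Foxc2 are transcription factors of the embryonic mesoderm and its mesenchyme. Around E9.5 PGCs lie in and near the hindgut, and by E12.5 they have settled in the gonad; at both places mesenchyme surrounds them.

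Germ cell markers were high in every group. Dppa3, which encodes stella, lay between 12.55 and 13.18 on the log2 scale on all 12 arrays, and of 9 germ cell markers on the arrays 8 in E9.5 PGCs and all 9 in every other group exceeded 4.81 on both arrays. The 2 arrays of a group correlated at r = 0.96 to 0.97 across all probe sets, and the titles call them biological replicates. Array codes in the labels divided the series: d3ag6, d6F, d3 and E12.5 arrays shared the code EA1013, while in d6M and E9.5 replicate 1 carried EA0831 and replicate 2 EA0842. Code and group therefore cannot be told apart when d6F or E12.5 cells are set against E9.5 PGCs or when d6F cells are set against d6M cells. Values are log2 signals after quantile normalization, given as replicate 1 and then replicate 2, and 4.81 is the level below which signals are called dim here.

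Promoter sequence was matched for 5 of the 8 genes, Acta2, Col1a2, Col3a1, Postn and Twist1, in RefSeq windows of the 250 bases before the annotated start (GRCm38.p6). Those of Acta2, the contractile gene of the 8, and of Col3a1, the gene called in d3ag6 cells against d3 cells, are printed. Capitals in the Acta2 sequence (chr19:34255374-34255623, minus strand) mark 2 matches to a CArG box in which 1 of the central A or T bases is a G or C. Serum response factor is known to bind such boxes in this promoter. Capitals in the Col3a1 sequence (chr1:45311288-45311537, plus strand) mark TATAAA, the core letters of a common promoter box.
Acta2: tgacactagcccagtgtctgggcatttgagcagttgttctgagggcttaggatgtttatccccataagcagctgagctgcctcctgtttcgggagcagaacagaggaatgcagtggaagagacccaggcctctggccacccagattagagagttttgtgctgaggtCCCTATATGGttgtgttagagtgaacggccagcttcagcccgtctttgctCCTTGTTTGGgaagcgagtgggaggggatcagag
Col3a1: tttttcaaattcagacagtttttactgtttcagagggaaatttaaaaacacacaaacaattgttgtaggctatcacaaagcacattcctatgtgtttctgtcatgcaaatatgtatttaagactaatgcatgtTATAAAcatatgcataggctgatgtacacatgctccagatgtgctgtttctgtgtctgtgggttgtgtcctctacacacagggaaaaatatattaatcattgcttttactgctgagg
On both strands, a CArG box with 1 G or C was found in 7.24% of 32851 windows of that length, the strict CArG box in 1.47% but in none of these 5 genes, and TATAAA in 12.4%. TATAAA was also in the Twist1 window and in 1 of the 2 Postn windows, and CCAAT, found in 33.8% of windows, was in the Col1a2 and Twist1 windows. The Col1a2 window also held 1 CArG box with a G or C. The E box letters CANNTG, which basic helix-loop-helix factors such as Twist1 bind, were in 66.2% of windows, those of Acta2 and Col3a1 among them. These letters describe the sequence alone, and binding was not measured.

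Col3a1 encodes the single chain of type III collagen. It measured 8.22 and 9.30 in d3ag6 cells, 7.28 and 7.06 in d6F cells, 7.21 and 7.87 in d6M cells, and 4.69 and 4.78 in d3 cells. In embryonic PGCs it measured 5.10 and 4.81 at E12.5, against 10.36 and 9.04 at E9.5. The gene was thus high in E9.5 PGCs and d3ag6 cells, whose arrays overlapped, intermediate in both day 6 groups, and at or near the median of all values in E12.5 PGCs and d3 cells. Its lowest group mean was 4.74 ± 0.06 in d3 cells and its highest 9.70 ± 0.94 in E9.5 PGCs (SD, n = 2 each). In this order the day 6 groups overlapped each other, and d3ag6 lay apart from d6M, d6F from E12.5, and E12.5 from d3.

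Col1a2 and Col1a1 encode the chains of type I collagen, and both moved far less than Col3a1. Col1a2 measured 6.54 and 7.23 in d3ag6 cells, 6.73 and 6.58 in d6F cells, 7.14 and 7.68 in d6M cells, and 6.41 and 6.11 in d3 cells. It measured 6.79 and 6.54 in E12.5 PGCs, against 8.56 and 7.62 in E9.5 PGCs. All 12 of its arrays exceeded 4.81, and of neighbouring groups in order of level only d6F and d3, the lowest, did not overlap. Col1a1 measured 5.17 and 6.10 in d3ag6 cells, 5.90 and 5.00 in d6F cells, 5.62 and 5.58 in d6M cells, and 5.38 and 5.73 in d3 cells. It measured 5.00 and 4.71 in E12.5 PGCs, against 6.05 and 6.86 in E9.5 PGCs. Every pair of neighbours in its order of levels overlapped, with the lowest mean, 4.86 ± 0.21, in E12.5 PGCs and the highest, 6.46 ± 0.57, in E9.5 PGCs (SD, n = 2 each).

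Postn encodes periostin, a secreted protein that links collagen to integrins. It measured 3.85 and 5.61 in d3ag6 cells, 4.48 and 4.72 in d6F cells, 5.46 and 5.50 in d6M cells, and 4.05 and 3.61 in d3 cells. It measured 3.28 and 3.15 in E12.5 PGCs, against 8.20 and 7.49 in E9.5 PGCs. E9.5 PGCs stood above every other group, d6M cells and 1 d3ag6 array were above 4.81, and the other 7 arrays were dim. Sparcl1 encodes a secreted relative of SPARC. It measured 4.59 and 5.68 in d3ag6 cells, 7.19 and 5.21 in d6F cells, 6.08 and 6.03 in d6M cells, and 0.12 and 3.14 in d3 cells. It measured 1.99 and 1.88 in E12.5 PGCs, against 8.18 and 5.99 in E9.5 PGCs. All d3 and E12.5 arrays were dim for Sparcl1, while the d6F, d6M and E9.5 arrays overlapped one another above 4.81. Its d3 arrays differed by over 3 log2 units and its E9.5 and d6F arrays by about 2, the widest replicate gaps of the 8 genes beside those of Twist1 and Foxc2 at E9.5.

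Acta2 encodes the actin of smooth muscle, also made by activated fibroblasts. It measured 8.08 and 8.12 in d3ag6 cells, 9.24 and 8.45 in d6F cells, 9.39 and 8.86 in d6M cells, and 7.27 and 8.11 in d3 cells. It measured 6.79 and 6.37 in E12.5 PGCs, against 9.31 and 8.36 in E9.5 PGCs. All 12 arrays exceeded 4.81. The d6M, d6F and E9.5 arrays overlapped at the top, d3ag6 and d3 arrays overlapped below them, and E12.5 PGCs stood apart at the bottom. Acta2 was the only one of the 8 whose highest group mean was in cultured cells, at 9.13 ± 0.38 in d6M cells (SD, n = 2), although these arrays overlapped those of d6F cells and E9.5 PGCs.

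Twist1 encodes a basic helix-loop-helix factor of mesoderm and neural crest mesenchyme. It measured 3.21 and 4.10 in d3ag6 cells, 2.92 and 3.32 in d6F cells, 3.21 and 3.90 in d6M cells, and 5.35 and 6.74 in d3 cells. It measured 3.79 and 4.53 in E12.5 PGCs, against 8.62 and 6.28 in E9.5 PGCs. The 4 arrays above 4.81 were those of d3 cells and E9.5 PGCs, which overlapped. Foxc2 encodes a forkhead factor of paraxial mesoderm and vessel-forming mesenchyme. It measured 1.40 and 3.07 in d3ag6 cells, 2.15 and 2.03 in d6F cells, 2.38 and 0.89 in d6M cells, and 3.24 and 3.36 in d3 cells. It measured 3.23 and 3.99 in E12.5 PGCs, against 8.24 and 6.17 in E9.5 PGCs. Foxc2 exceeded 4.81 on the E9.5 arrays alone, and it entered the test only through them.

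**Figure D1:**
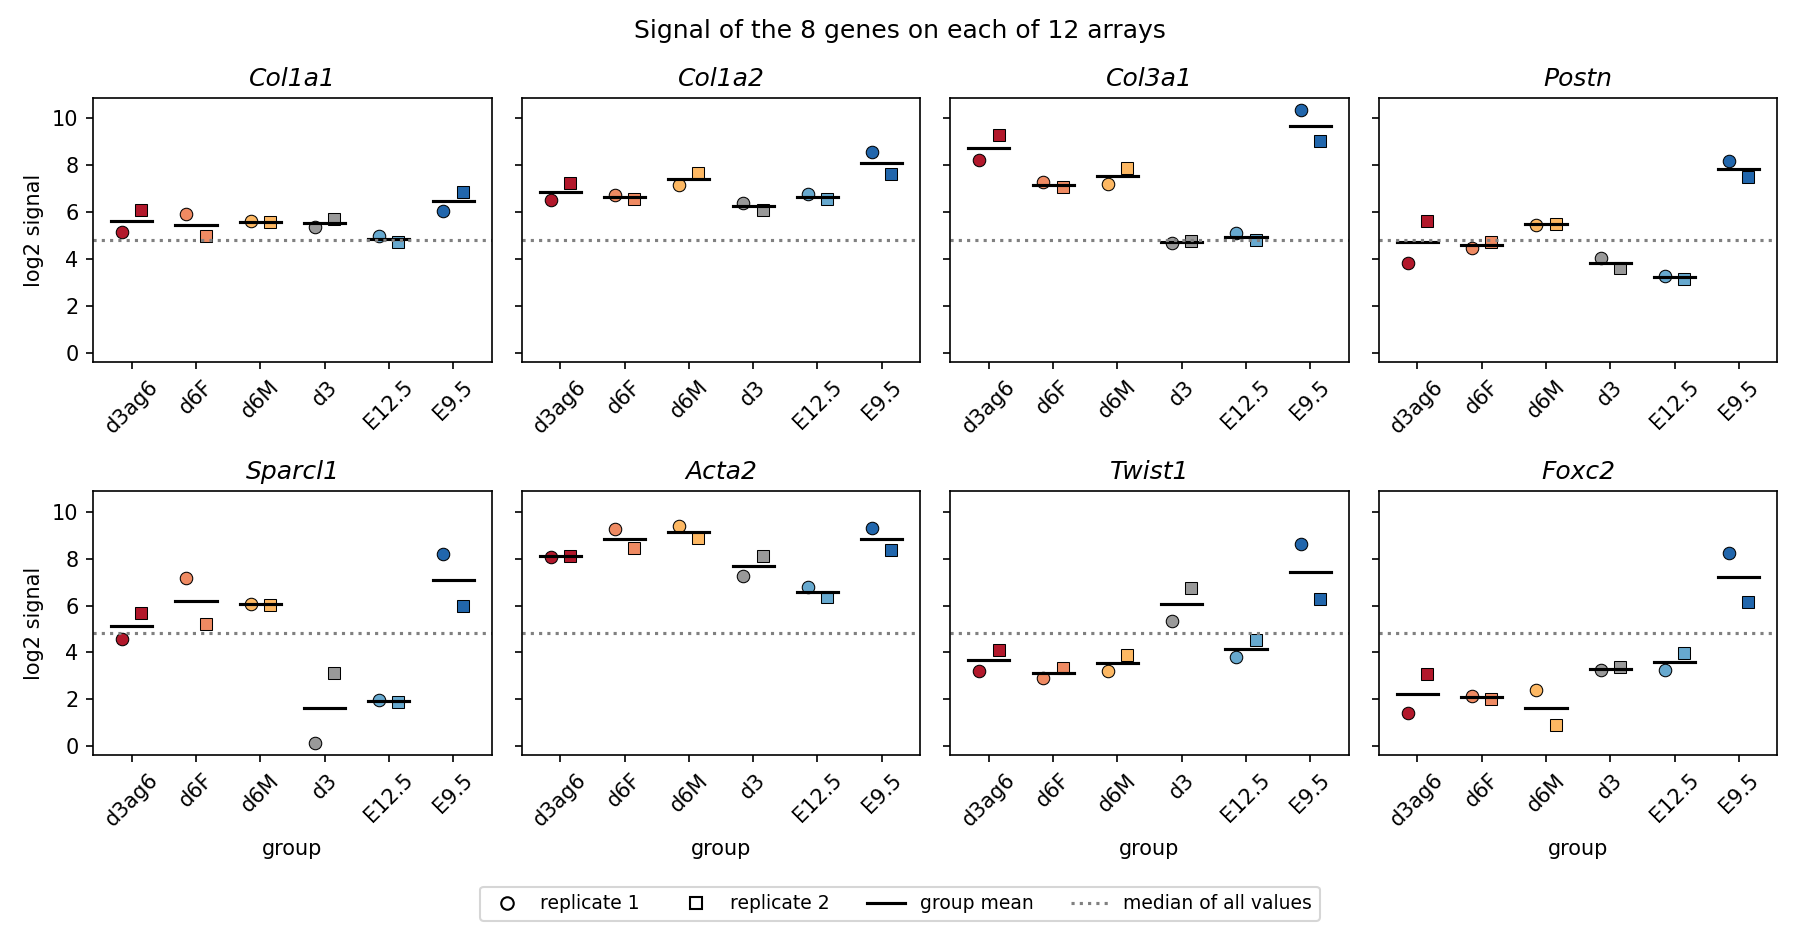
Log2 signal (y axis) of each of the 8 genes on all 12 arrays, by group (x axis), with circles for replicate 1, squares for replicate 2, a bar for the group mean and a dotted line at 4.81, the median of all values. Col3a1 is high in d3ag6 cells (8.22 and 9.30) and E9.5 PGCs (10.36 and 9.04), while Foxc2 lies above the dotted line in E9.5 PGCs alone (8.24 and 6.17).

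The comparison of E12.5 with E9.5 PGCs asked how germ cells of the gonad differ from migrating ones. All 8 genes were lower in E12.5 PGCs, with arrays that did not overlap. By limma with Benjamini-Hochberg adjustment over all 13436 genes, 8 of 8 fell, against 10.7% of all genes tested that fell in this comparison. Foxc2 was tested only because its E9.5 arrays were bright, so its fall here and in the day 6 comparisons is built into its entry and is given as a description; the other 7 fell too. For each of the 8 the arrays lay apart with E12.5 lower, as they did for 28.6% of all genes tested. In bulk RNA, fewer cells of a type and less RNA per cell cannot be told apart. Col3a1 averaged 4.95 ± 0.21 in E12.5 PGCs and 9.70 ± 0.94 in E9.5 PGCs, a difference of -4.74 (SE 0.46, adjusted p = 0.00028). Postn differed by -4.63 (SE 0.48, adjusted p = 0.000383), Sparcl1 by -5.15 (SE 1.04, adjusted p = 0.00796) and Acta2 by -2.25 (SE 0.41, adjusted p = 0.00496). These 4 calls held without any 1 of the 4 arrays. With values below 4.81 set to that level the Postn difference was -3.03, and Sparcl1 was no longer called (-2.27, adjusted p = 0.0549). Nor was Acta2 with the mean of all its probe sets (-0.77, adjusted p = 0.157).

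The other 4 genes fell in the same comparison by less certain amounts. Col1a1 differed by -1.60 (SE 0.40, adjusted p = 0.0198), Col1a2 by -1.42 (SE 0.34, adjusted p = 0.0173), Twist1 by -3.29 (SE 0.73, adjusted p = 0.0124) and Foxc2 by -3.60 (SE 0.75, adjusted p = 0.00943). For Twist1 and Foxc2 the E12.5 values were dim, and with dim values set to 4.81 the differences were -2.64 and -2.39. Without E12.5 replicate 1 only 4 of the 8 genes were called, and without E9.5 replicate 1 only 5. Twist1 and Foxc2 were among those lost each time, with adjusted p of 0.0532 and 0.0501 without E9.5 replicate 1 and of 0.0878 and 0.0706 without E12.5 replicate 1. Without E12.5 replicate 2, 6 genes were called and neither Col1a1 (adjusted p = 0.111) nor Col1a2 (adjusted p = 0.102) was among them. Without E9.5 replicate 2, 7 were called and Col1a1 was not (adjusted p = 0.103). Col1a2 was also lost without E9.5 replicate 1 (adjusted p = 0.0913), and both type I genes without E12.5 replicate 1 (adjusted p = 0.0696 for Col1a1 and 0.0651 for Col1a2). With only the 4 arrays compared in the fit, Col1a2 (adjusted p = 0.0573) and Twist1 (adjusted p = 0.0556) did not pass. The E9.5 array of replicate 1 was above that of replicate 2 in 7 of the 8 genes, all but Col1a1. Its summed linear signal over the 8 genes was 3673, against 1560 on replicate 2, and its gonadal somatic marker sum was 1000, against 581. Among those markers the nuclear receptor gene Nr2f2 measured 8.52 and 6.28. Replicate 1 was also higher in the endothelial (1880, against 1483) and blood (656, against 475) sums. It was lower in the germ cell sum (26812, against 31493) and about level in the epithelial sum (3533, against 3579).

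Cultured day 6 cells were set against E9.5 PGCs, the earlier of the embryonic stages. In d6F cells, 5 of 8 genes fell, Foxc2 among them, where 5.6% of all genes tested did. Foxc2 differed by -5.11 (SE 0.75, adjusted p = 0.00317), Twist1 by -4.33 (SE 0.73, adjusted p = 0.00593) and Postn by -3.24 (SE 0.48, adjusted p = 0.00327), and these 3 calls held without any 1 array. With dim values set to 4.81 these differences were -2.39, -2.64 and -3.03. Col3a1 differed by -2.53 (SE 0.46, adjusted p = 0.00822), which was not called when d6F replicate 2 was left out (adjusted p = 0.0538). Col1a2 differed by -1.44 (SE 0.34, adjusted p = 0.0259), lost without either d6F array or E9.5 replicate 1 (adjusted p up to 0.124). Sparcl1 (-0.89, SE 1.04, adjusted p = 0.625), Acta2 (0.01, SE 0.41, adjusted p = 0.988) and Col1a1 (means of 5.45 and 6.46, adjusted p = 0.135) did not pass. With only these 4 arrays in the fit Twist1 (adjusted p = 0.0524), Col3a1 (adjusted p = 0.0543) and Col1a2 (adjusted p = 0.0986) did not pass, and Col1a2 was also lost without a filter (adjusted p = 0.0514) and with the mean of its probe sets (adjusted p = 0.0635). Arrays lay apart with d6F lower for 6 of 8 genes, and for 22.9% of all genes tested.

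In d6M cells 4 of 8 genes fell relative to the same E9.5 PGCs, where 4.55% of all genes tested did. Arrays lay apart with d6M lower for 5 of 8, and for 20.9% of all genes tested. Both comparisons share the E9.5 arrays, so the values stand side by side only. Foxc2 differed by -5.57 (SE 0.75, adjusted p = 0.00244), held without any 1 array. Twist1 differed by -3.89 (SE 0.73, adjusted p = 0.0108), lost without d6M replicate 1 (adjusted p = 0.0605). With dim values set to 4.81 these 2 differences were -2.39 and -2.64. Col3a1 differed by -2.16 (SE 0.46, adjusted p = 0.0182), lost without d6M replicate 1 (adjusted p = 0.0908) or E9.5 replicate 1 (adjusted p = 0.0885). Postn differed by -2.37 (SE 0.48, adjusted p = 0.015) and was lost without either d6M array or E9.5 replicate 1 (adjusted p up to 0.0872). With only these 4 arrays in the fit, Foxc2 (adjusted p = 0.0522), Twist1 (adjusted p = 0.101) and Col3a1 (adjusted p = 0.132) did not pass. These groups share array codes. Within EA0831 and within EA0842, d6M minus E9.5 was -5.86 and -5.28 for Foxc2, -5.41 and -2.38 for Twist1, -3.15 and -1.17 for Col3a1, and -2.74 and -1.99 for Postn. Col1a2 was lower in d6M cells within EA0831 (-1.42) but not within EA0842 (0.07), and Sparcl1 likewise (-2.10 and 0.03). Acta2 was higher in d6M cells within both codes, by 0.08 and 0.50, and did not pass (0.29, SE 0.41, adjusted p = 0.754).

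The comparison of d6F with d6M cells set female beside male PGCLCs at day 6, where sex and array code cannot be told apart. No member was called by limma, where 1.47% of all genes tested were, and none had an unadjusted p under 0.05. Col1a2 differed by -0.76 (SE 0.34, adjusted p = 0.284) and Postn by -0.88 (SE 0.48, adjusted p = 0.365), and these were the 2 genes whose d6F arrays both lay below both d6M arrays, as in 20.2% of all genes tested.

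**Figure D2:**
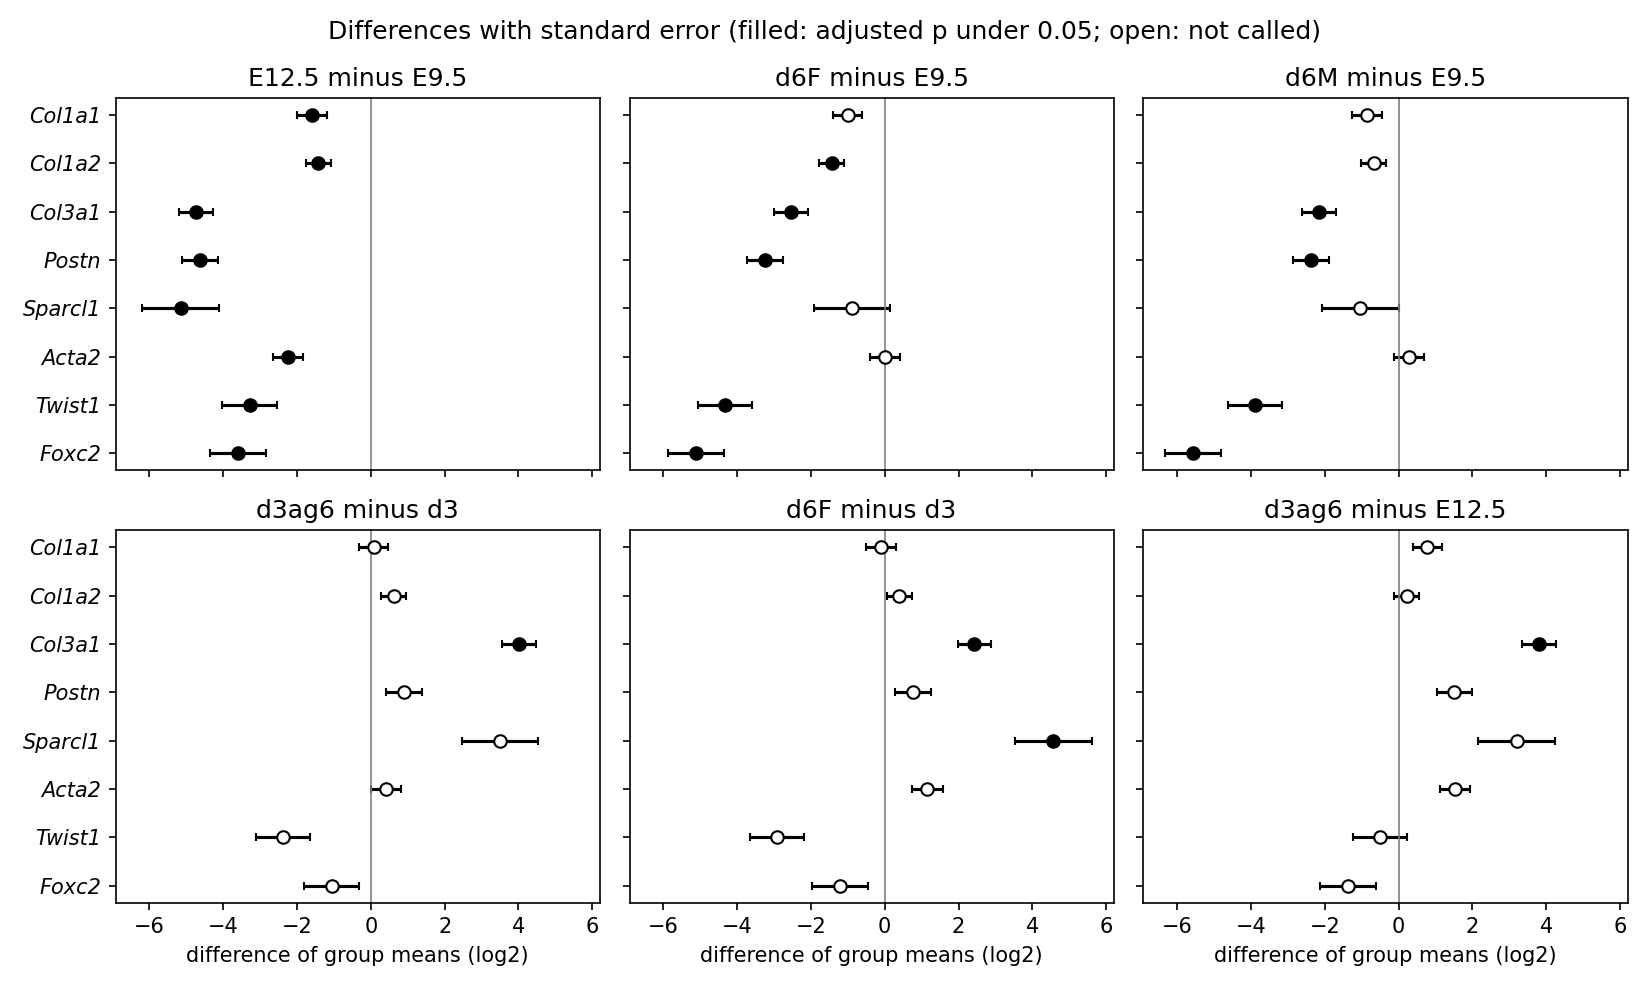
Difference of group means (x axis, log2) with its standard error for the 8 genes (rows) in 6 comparisons; filled points passed an adjusted p of 0.05. All 8 genes lie left of 0 in E12.5 minus E9.5, and Col3a1 lies right of 0 in d3ag6 minus d3 (4.02), d6F minus d3 (2.43) and d3ag6 minus E12.5 (3.80).

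Within cultured cells, the comparisons with d3 asked what longer culture, with or without gonadal somatic cells, changed. Col3a1 was the gene that stood out in d3ag6 cells. It averaged 8.76 ± 0.76 in d3ag6 cells and 4.74 ± 0.06 in d3 cells (SD, n = 2 each), a difference of 4.02 (SE 0.46, adjusted p = 0.0011) or 16.2-fold, and the call held without any 1 array. It was the 1 member of 8 that rose, where 5.81% of all genes tested did. Sparcl1 (3.51, SE 1.04, adjusted p = 0.0668) and Twist1 (-2.39, SE 0.73, adjusted p = 0.0755) did not pass. With dim values set to 4.81 the Sparcl1 difference was 0.43 and that of Twist1 -1.23. Twist1 passed with only the 8 arrays coded EA1013 in the fit (adjusted p = 0.0287). Sparcl1 was called without d3 replicate 2 (5.02, adjusted p = 0.0265) and Postn without d3ag6 replicate 1 (1.78, adjusted p = 0.0227, against 0.90 with all arrays). In d6F cells, 2 of 8 rose relative to d3 cells, where 1.72% of all genes tested did. Col3a1 averaged 7.17 ± 0.16 in d6F cells, a difference of 2.43 (SE 0.46, adjusted p = 0.0224), and Sparcl1 differed by 4.57 (SE 1.04, adjusted p = 0.0452). Col3a1 lost that call without any 1 of the 4 arrays (adjusted p = 0.0687 to 0.148). Sparcl1 lost it without d3 replicate 1 (3.06, adjusted p = 0.219), d6F replicate 1 (3.58, adjusted p = 0.291) or d6F replicate 2 (5.56, adjusted p = 0.0711), and its difference was 1.38 with dim values set to 4.81. Without a filter neither Col3a1 (adjusted p = 0.0513) nor Sparcl1 (adjusted p = 0.0911) passed, and Sparcl1 was also lost in 6 other settings (adjusted p = 0.0501 to 0.42). Twist1 was lower in d6F than in d3 cells without passing (-2.92, SE 0.73, adjusted p = 0.0654), and both d6F arrays lay below both d3 arrays. With only the 8 arrays coded EA1013 in the fit Twist1 passed (adjusted p = 0.0295) and Sparcl1 did not (adjusted p = 0.0604), so that the count stayed at 2 with another member.

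Against E12.5 PGCs, the embryonic cells of the same sex from the gonad, d3ag6 cells again differed in Col3a1. It averaged 8.76 ± 0.76 in d3ag6 cells and 4.95 ± 0.21 in E12.5 PGCs (SD, n = 2 each), a difference of 3.80 (SE 0.46, adjusted p = 0.00159) that held without any 1 array. It was the 1 member of 8 that rose, where 5.95% of all genes tested did. Acta2 (1.52, SE 0.41, adjusted p = 0.0505), Postn (1.51, SE 0.48, adjusted p = 0.0906) and Sparcl1 (3.20, SE 1.04, adjusted p = 0.0966) did not pass. Postn passed without d3ag6 replicate 1 (2.39, adjusted p = 0.0077). Acta2 lay close to the threshold and passed in 6 other settings (adjusted p = 0.0182 to 0.0483), and Sparcl1 passed with only the arrays compared in the fit (adjusted p = 0.0182). With dim values set to 4.81 the differences were 0.40 for Postn and 0.43 for Sparcl1. Both d3ag6 arrays lay above both E12.5 arrays in 5 of 8 genes, and for 32.4% of all genes tested. Relative to d6F cells, no member was called in d3ag6 cells by limma, where 6.39% of all genes tested were, and 1 had an unadjusted p under 0.05. That gene was Col3a1, at 8.76 ± 0.76 in d3ag6 cells and 7.17 ± 0.16 in d6F cells, a difference of 1.59 (SE 0.46, adjusted p = 0.0798). It passed with only the 8 arrays coded EA1013 in the fit (adjusted p = 0.0358) and with the mean of its probe sets (1.88, adjusted p = 0.0471). Replicate 2 of d3ag6 lay above replicate 1 in all 8 genes, and its summed linear signal over them was 1253, against 748.

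Markers of other cells moved with these groups. Summed linear signals of 13 blood and macrophage markers were 2486 and 3077 in d3ag6 cells, 605 to 634 in d6F cells, 526 to 527 in d3 cells and 643 to 665 in E12.5 PGCs. In d3ag6 cells 9 of the 13 exceeded 4.81 on both arrays, against 4 in each of d6F, d3 and E12.5. Sums of 14 gonadal somatic markers were 844 and 944 in d3ag6 cells, 496 to 503 in d6F cells, 525 to 704 in d3 cells and 613 to 626 in E12.5 PGCs, and 8 of the 14 exceeded 4.81 on both d3ag6 arrays, against 4 in d6F, 5 in d3 and 7 in E12.5. None of these markers was at 0 on any array of these groups. Amhr2, a receptor of gonadal somatic cells, measured 7.53 and 7.68 in d3ag6 cells, against 6.06 and 5.58 in E12.5 PGCs and 6.56 and 5.48 in d3 cells. It was the 1 of 10 tested gonadal somatic markers that rose in d3ag6 minus E12.5, beside 5.95% of all genes tested. In d3ag6 minus d3, 2 of 10 rose, Amhr2 and Rspo1, beside 5.81%, and none fell in either comparison. Sums of the 12 endothelial markers were 1457 to 1861 in d3ag6 cells, against 1674 to 2020 in d3 cells and 633 to 754 in E12.5 PGCs. Of 11 tested, 2 rose in d3ag6 minus E12.5, Egfl7 (1.75) and Emcn (1.61), beside 5.95% of all genes tested. None of the 11 was called in d3ag6 minus d3. The part of blood, gonadal somatic or endothelial cells in the Col3a1 values of d3ag6 cells was not tested. Of 10 gonadal somatic markers tested in E12.5 minus E9.5, 1 rose, Amhr2 (1.30, adjusted p = 0.0165), and 1 fell, beside 12.9% and 10.7% of all genes tested. The one that fell was Nr2f2, a nuclear receptor gene also active in other mesenchyme, at 3.36 and 2.44 in E12.5 PGCs, against 8.52 and 6.28 in E9.5 PGCs. Nr2f2 exceeded 4.81 on the E9.5 arrays alone and entered the test only through them. Its fall here and in the day 6 comparisons is thus built into its entry and is given as a description. Sums of 12 endothelial markers were 633 to 754 in E12.5 PGCs, against 1483 to 1880 in E9.5 PGCs, and 4 of 11 tested fell, beside 10.7% of all genes tested. Those that fell were Egfl7, Emcn, Cldn5 and Vwf, and the other 7, the receptor genes Tek, Kdr and Flt1 among them, did not pass. Gonadal somatic sums were 613 to 626 in E12.5 PGCs, against 581 to 1000 in E9.5 PGCs, and blood sums were 643 to 665, against 475 to 656. The part of endothelial or other somatic cells in the E12.5 differences was not tested. Against the same E9.5 PGCs, 3 of 10 gonadal somatic markers fell in d6F cells (Nr2f2 at -3.98, Rspo1 at -2.95, and Fst), beside 5.6% of all genes tested. In d6M cells 4 of 10 fell (Nr2f2 at -4.06, Lhx9 at -2.51, Wt1 at -2.11 and Fst at -1.67), beside 4.55%. Their sums were 496 to 503 in d6F cells and 493 to 516 in d6M cells, against 581 to 1000 in E9.5 PGCs. Endothelial sums were 1774 to 2428 in d6F cells and 3114 to 3551 in d6M cells, against 1483 to 1880 in E9.5 PGCs. Of 11 tested endothelial markers, 2 rose in d6F cells (Flt1 by 1.14 and Tek by 1.20) and 4 in d6M cells (Tek by 2.39, Esam by 2.15, Kdr by 1.34 and Tie1 by 2.56), beside 8.33% and 6.04% of all genes tested. The part of such cells in the day 6 differences, of the members and of related genes, was not tested. Sums of the 7 epithelial markers were 3670 to 4168 in d3ag6 cells, 5833 to 6690 in d3 cells, 3380 to 3687 in E12.5 PGCs and 3533 to 3579 in E9.5 PGCs. Epcam was the brightest of them in every group, with group means of 11.15 to 11.77. In d3 cells Krt8 and Krt18 averaged 10.37 each, against 6.36 and 8.07 in d3ag6 cells. These were the 2 of 6 tested that fell in d3ag6 minus d3, beside 4.84% of all genes tested. Lhx1 was the 1 that rose (4.42 in d3 cells, 7.79 in d3ag6 cells), beside 5.81%.

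Several members had more than 1 probe set. The second Col3a1 probe set, dimmer throughout, followed the used one at r = 0.96 over 12 arrays, with means of 5.91 in d3ag6 cells, 3.73 in d6F, 4.46 in d6M, 2.13 in d3, 2.81 in E12.5 and 5.96 in E9.5. The second Col1a2 probe set (r = 0.82) had means of 5.82 in d3ag6 cells, against 3.87 in d3 cells and 3.13 in E12.5 PGCs, a wider spread than the used one gave. The second Col1a1 probe set correlated at r = 0.49 and exceeded 4.81 on 2 arrays. For Acta2 the other probe sets exceeded 4.81 on 0 arrays and correlated with the used one at r = -0.03 and 0.52. The Acta2 set used carries the suffix by which the maker marks sets that can match more than 1 transcript, so its values may include a related actin. Levels of different probe sets are not compared.

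**Figure D3:**
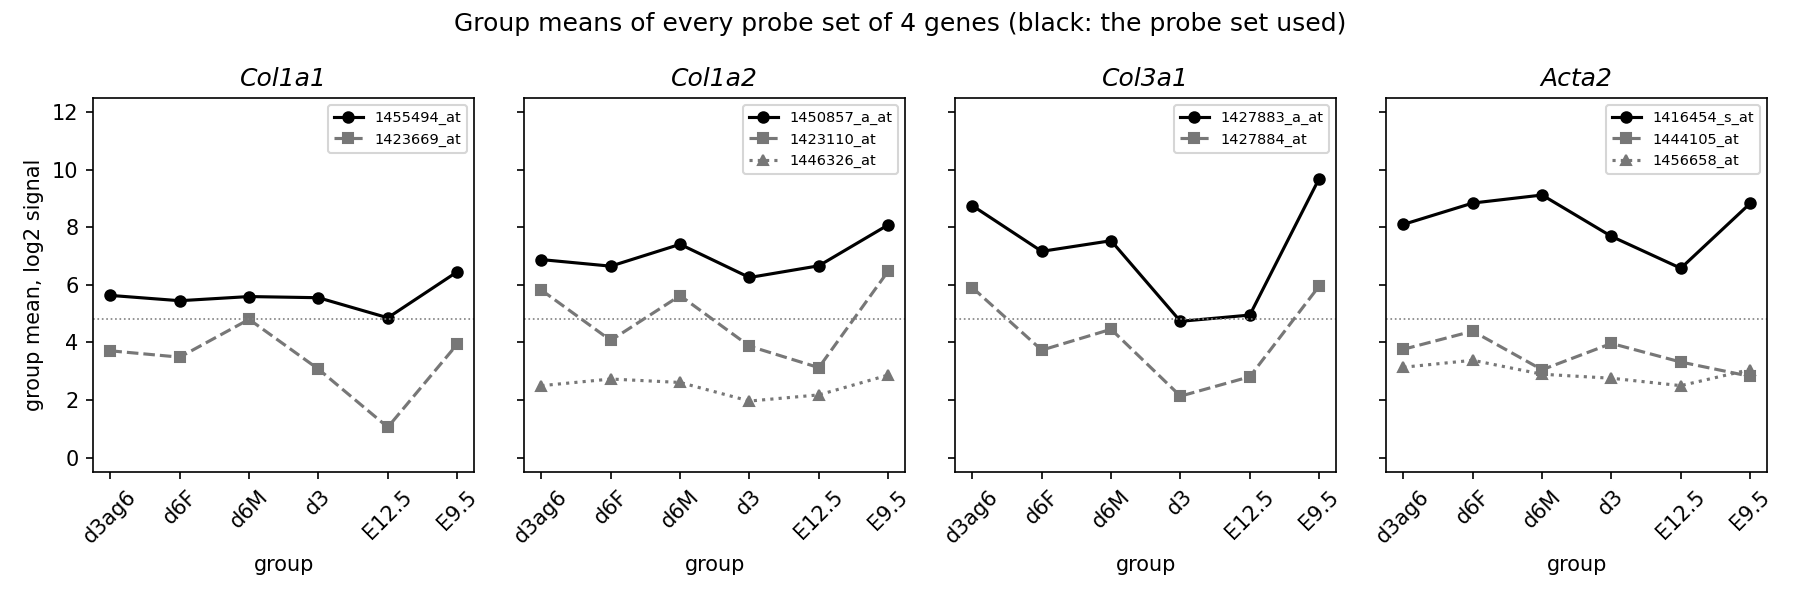
Group means (y axis, log2 signal) of every probe set of the 4 genes with more than 1, by group (x axis), with the probe set used in black and the others in grey. Both Col3a1 probe sets are high in d3ag6 cells (8.76 and 5.91) and E9.5 PGCs (9.70 and 5.96), while the other Acta2 probe sets stay below the dotted line at 4.81.

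The 8 genes did not share 1 pattern. Over 12 arrays the Pearson r of the 28 pairs had a median of 0.58, with the lowest at 0.04 (Acta2 and Foxc2) and the highest at 0.90 (Col1a2 and Postn); the points share arrays and group structure. Without the E9.5 arrays, over 10 arrays, Twist1 and Foxc2 ran against Col3a1 (r = -0.62 and -0.66), while Sparcl1 and Acta2 stayed close (r = 0.87, against 0.88 over 12 arrays). Foxc2 was dim on all 10 of these arrays, and Twist1 on all but those of d3 cells. The negative r thus rest largely on dim signals. Among 13435 other genes, those most like Col3a1 over 12 arrays were Npr2, a natriuretic peptide receptor, Cmtm8, and Mfap2, a microfibril protein (each r = 0.87). Those most like Postn were Col26a1 and Nmral1 (each r = 0.96), and Sema5a (r = 0.93). For Acta2 they were Klhl4 (r = 0.97), Brd1 (r = 0.95) and Clba1 (r = 0.94), and for Sparcl1 Mettl5 (r = 0.92), Tecpr2 and Msrb3 (each r = 0.91). Twist1 was most like Hoxc8, a homeobox gene of the trunk, with means of 2.53 in E12.5 PGCs, 6.40 in E9.5 PGCs and 5.97 in d3 cells (r = 0.95). Marcks and Wdr86 came next (each r = 0.94). Foxc2 was most like Eml1 (r = 0.95), Crabp2, a retinoic acid binding protein, and Neurog2, a neural factor (each r = 0.93).

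Related genes outside the 8 were read from 8 lists of matrix and mesenchyme genes, 99 of whose 123 genes were tested. In E12.5 minus E9.5, 25 of 99 fell (25.3%) and 6 rose (6.06%), beside 10.7% and 12.9% of all genes tested. Of 10 smooth muscle contractile genes 5 fell and 5 did not pass. Among them were Myl9, a myosin light chain (4.48 in E12.5, against 7.70 in E9.5; -3.22, SE 0.36, adjusted p = 0.000517), and Cald1, caldesmon (-2.30, SE 0.27, adjusted p = 0.000663). Of 8 other mesenchyme markers 4 fell, among them the cadherin gene Cdh11 (3.09 in E12.5, against 7.77 in E9.5; -4.68, SE 0.77, adjusted p = 0.00315). Of 12 fibrillar and associated collagens 3 fell and 1 rose. The cartilage collagen gene Col2a1 differed by -3.93 (SE 0.54, adjusted p = 0.00133) and Col5a2 by -1.91 (SE 0.25, adjusted p = 0.00109). Of 14 mesenchymal transcription factors 2 fell, with Foxd1 at -4.75 (SE 0.62, adjusted p = 0.00111). These 2 averaged below 4.81 in every group but E9.5 PGCs. So did the collagen genes Col2a1, Col11a1 and Col4a5, and the proteoglycan gene Lum, which fell too. Foxc1, which fell in the day 6 comparisons alone, did likewise. All of these are counted in the shares of related genes that fell. Their falls from E9.5, here and in the day 6 comparisons, may be built into their entry and are given as a description. Of 14 basement membrane genes 3 fell and 1 rose, of 15 matrix glycoproteins 4 fell and 1 rose, and of 11 receptors 2 fell. The 15 collagen processing genes split, with 3 up and 2 down. Crtap, which encodes a protein of prolyl 3-hydroxylation, rose by 1.39 (SE 0.17, adjusted p = 0.000871).

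In d6F minus E9.5, 16 of 99 related genes fell (16.2%) and 7 rose (7.07%), beside 5.6% and 8.33% of all genes tested. Those that fell include Col2a1, Col11a1, Col4a5, Lum, Foxd1, Foxc1 and Meox1, whose falls may be built into their entry. The share that fell is therefore given as a description. Col2a1 differed by -3.89 (SE 0.54, adjusted p = 0.00232), Foxd1 by -4.12 (SE 0.62, adjusted p = 0.00351) and the cadherin gene Cdh2 by -2.61 (SE 0.32, adjusted p = 0.0014). The smooth muscle list went both ways there, with 2 up and 1 down of 10, and in d6M minus E9.5 it had 3 up and 0 down. In d6M minus E9.5, 11 of 99 rose (11.1%) and 14 fell (14.1%), beside 6.04% and 4.55% of all genes tested. Those that fell include the same genes dim outside E9.5 PGCs, so this share too is a description. Lama4, a laminin chain also made by vessels, rose by 3.64 (SE 0.54, adjusted p = 0.00362) in the same cells whose endothelial marker sums were above those of E9.5 PGCs, and Col2a1 differed by -4.40 (SE 0.54, adjusted p = 0.00142).

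In d3ag6 minus d3, 9 of 99 related genes rose (9.09%) and 8 fell (8.08%), beside 5.81% and 4.84% of all genes tested. Of 12 fibrillar and associated collagens 3 rose, among them Col5a3 (1.91, SE 0.26, adjusted p = 0.00224), which was lost with the mean of all its probe sets, and Col6a2 (1.06, SE 0.16, adjusted p = 0.00447). Of 15 collagen processing genes 3 rose, among them P4ha2, a prolyl 4-hydroxylase subunit (2.27, SE 0.28, adjusted p = 0.00163). Of 10 contractile genes 3 fell and 1 rose. Cald1 averaged 7.64 in d3ag6 cells and 10.35 in d3 cells (-2.71, SE 0.27, adjusted p = 0.000564), while Acta2 did not pass. Of 8 other mesenchyme markers 2 fell, Cdh2 (-1.96, SE 0.32, adjusted p = 0.0059) and Meg3, an imprinted noncoding RNA (-2.96, SE 0.44, adjusted p = 0.00356). In d3ag6 minus E12.5, 12 of 99 rose (12.1%) and 2 fell (2.02%), beside 5.95% and 3.07% of all genes tested. Of 14 basement membrane genes 5 rose, with Nid1 at 2.20 (SE 0.38, adjusted p = 0.00949). That call was lost without d3ag6 replicate 2 or E12.5 replicate 2. Of the 2 that fell, 1 was the collagen-binding integrin gene Itga1 (-3.92, SE 0.45, adjusted p = 0.00121), a call that held without any 1 array. In d3ag6 minus d6F, 5 rose and 5 fell of 99 (5.05% each), beside 4.03% and 2.36%. In d6F minus d3, 3 rose (3.03%, beside 1.72% of all genes tested) and 2 fell (2.02%). Of all 13436 genes tested, 545 were called there, 231 of them higher and the rest lower. In d6F minus d6M 1 rose and 1 fell (1.01% each), where 1.47% of all genes tested were called in either direction.

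**Figure D4:**
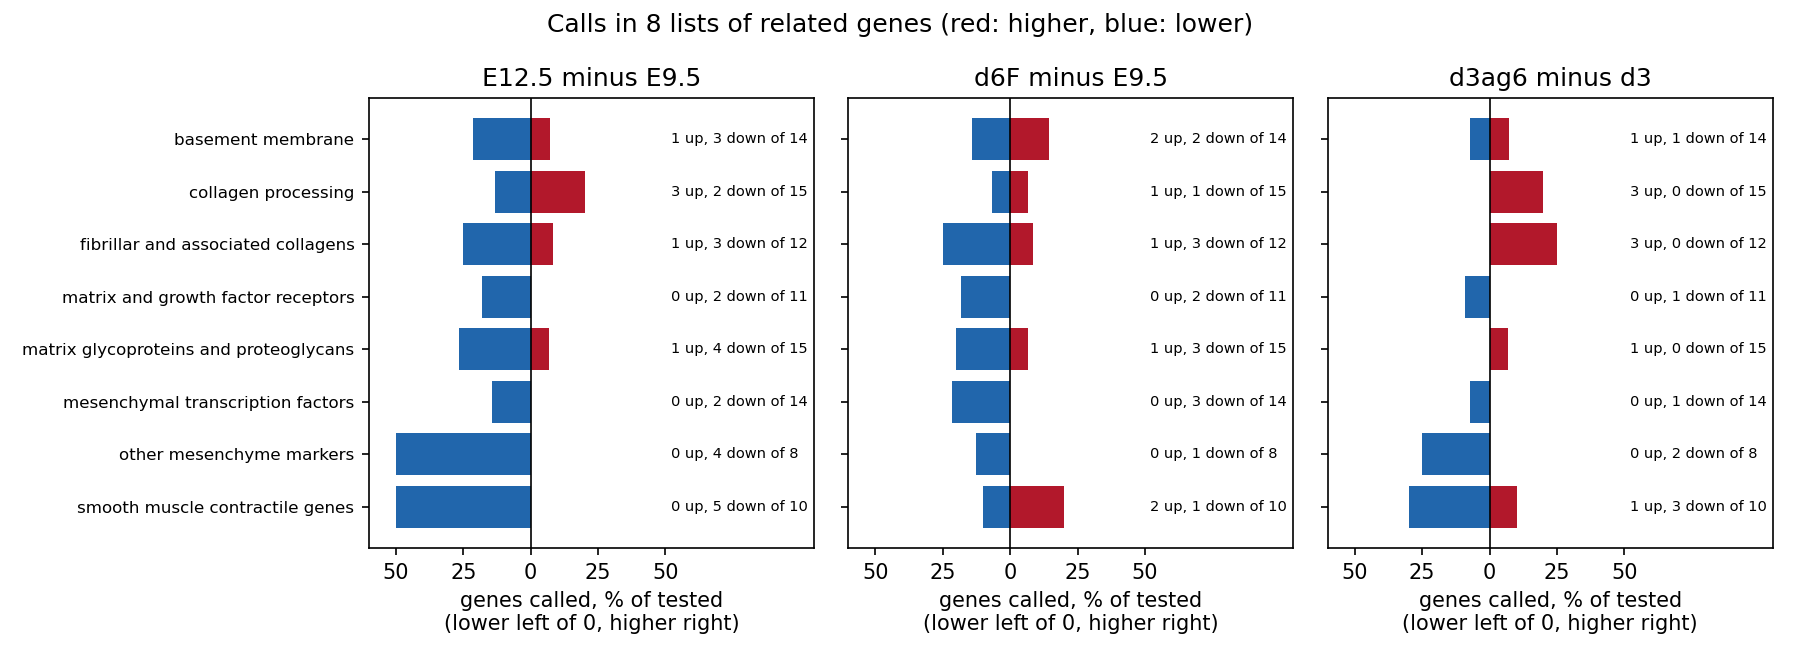
Share of tested genes called (x axis, percent; lower left of 0 in blue, higher right of 0 in red) in 8 lists of related genes (rows) for 3 comparisons, with the counts printed. In E12.5 minus E9.5, 5 of 10 contractile genes and 4 of 8 other mesenchyme markers fell; in d3ag6 minus d3, 3 of 12 collagens and 3 of 15 collagen processing genes rose.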

How the data were processed

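Per the labels' protocols, total RNA of sorted cells was turned into cDNA, of which the equivalent of 5 ng RNA or 500 cells went through 12 initial PCR cycles, and biotinylated cRNA was hybridised to Affymetrix arrays. Amplification from so little RNA can widen the spread of dim genes. The deposited table held log2 values of 45101 probe sets on every array; the log base was read from the range, and how the authors summarised and normalized probes is not given in the sources used here. Exact zeros made up 2.07% to 2.3% of an array. Array medians ranged from 4.73 to 4.87, over 0.1 apart, so values were quantile normalized with limma 3.58.1 (R 4.3.3).

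By the platform annotation 34958 probe sets had 1 gene, 932 several and 9211 none; 34754 matched the reference gene table. Genes with at least 2 of 12 arrays above the median of all values, 4.81, were tested. Changes were fitted with 1 mean per group over all arrays (6 residual degrees of freedom), then eBayes, two-sided, with Benjamini-Hochberg adjustment over 13436 genes per comparison, and called at adjusted p under 0.05. The 8 comparisons share arrays, and p-values measure the spread between the samples titled biological replicates. The fit was tested on simulated data. Tables and figures used Python 3.11.15, numpy 2.4.6, pandas 2.3.3 and matplotlib 3.10.9.

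The members and lists were chosen with earlier results of these data known. Beside the members, the text names at most 3 genes per list and comparison, by lowest adjusted p among those called, with preference, set after values were seen, for calls that neither a left-out array nor another setting ended. Listed genes that fell and averaged below 4.81 in every group but E9.5 PGCs are named in addition. For each member whose group means spanned over 2, the 3 genes with the highest r are named. The other settings tried were the filter, the normalization, the probe set rule, the replicate number as a block, a trended robust eBayes, the arrays in the fit, a 2-fold minimum, dim values set to 4.81, the array code, and each array left out. Replicate numbers marked a shared array code in d6M and E9.5, and there replicate 1 deviations correlated at r = 0.55. In the other comparisons the labels share only a number.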

Additional observations from a re-analysis of the deposited data

How the results depend on the processing

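Over 12 settings other than leaving out an array, 555 of 592 values of single members kept direction and side of the threshold, 20 lost their call, 13 gained one and 4 changed sign; with 1 array left out, 205 of 256 did, 27 lost it, 3 gained it and 21 changed sign. None of the members that changed sign had been called. The cause was not tested where none is given.

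Members called, without a filter, were 0 in d6F minus d3, against 2. With the stricter filter, which tests fewer members, they were 2 in d3ag6 minus E12.5, 1 in d6F minus d3, 2 in d6F minus E9.5, 1 in d6M minus E9.5 and 3 in E12.5 minus E9.5. In d6F minus d3 they were 1 with values as deposited, with the mean of all probe sets, with only the arrays compared and with dim values set to 4.81. In d3ag6 minus d6F they were 1 with the mean of all probe sets and with only the 8 arrays coded EA1013. In d3ag6 minus E12.5 they were 2 with eBayes trend and robust, with dim values set to 4.81 and with the EA1013 arrays, and 3 with only the arrays compared. With only those arrays, which leaves less data on the spread, they were 2 in d6F minus E9.5 and 1 in d6M minus E9.5. With the EA1013 arrays they were 2 in d3ag6 minus d3.

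With the replicate number as a block, members called were 2 in d3ag6 minus E12.5, where Acta2 was added (adjusted p = 0.0478), and 1 in d6F minus d3, where Sparcl1 was lost (adjusted p = 0.0641); no other member's call changed, and in d6M minus E9.5, where the numbers mark an array code, none did. Replicate 1 deviations correlated at -0.24 in d3ag6 minus d3 and -0.25 in d6F minus d3, and a block with the d3 numbers crossed, chosen after seeing the data, called 2 and 3 members.

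With 1 array left out, members called ranged from 1 to 2 in d3ag6 minus d3, 1 to 2 in d3ag6 minus E12.5, 0 to 1 in d6F minus d3, 3 to 5 in d6F minus E9.5, 1 to 4 in d6M minus E9.5 and 4 to 7 in E12.5 minus E9.5, and were 0 throughout in d3ag6 minus d6F and d6F minus d6M. A group left with 1 array was assumed to vary like the others.

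Genes called over all tested were 859 in d3ag6 minus d6F (193 to 1242 over all settings), 1430 in d3ag6 minus d3 (588 to 1836), 1213 in d3ag6 minus E12.5 (363 to 1653), 545 in d6F minus d3 (112 to 709), 1872 in d6F minus E9.5 (560 to 2058), 197 in d6F minus d6M (2 to 318), 1424 in d6M minus E9.5 (291 to 2004) and 3170 in E12.5 minus E9.5 (1387 to 3414).

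Signs turned for Acta2 in d6F minus E9.5 with values as deposited (-0.15), and with the mean of all probe sets for Col1a1 in d6F minus d3 (0.16), Acta2 in d6F minus d6M (0.52) and Col1a1 in d6M minus E9.5 (0.0043). With 1 array left out, the range crossed 0 for Col1a1 in d3ag6 minus d6F (-0.28 to 0.65), d3ag6 minus d3 (-0.39 to 0.55), d6F minus d3 (-0.56 to 0.35) and d6F minus d6M (-0.60 to 0.31); for Col1a2 in d3ag6 minus d6F (-0.12 to 0.57) and d3ag6 minus E12.5 (-0.13 to 0.56); for Postn (-0.75 to 1.01) and Foxc2 (-0.69 to 0.98) in d3ag6 minus d6F; for Sparcl1 in d6F minus E9.5 (-1.98 to 0.20), d6F minus d6M (-0.85 to 1.14) and d6M minus E9.5 (-2.13 to 0.0602); for Acta2 in d3ag6 minus d3 (-0.0008 to 0.83), d6F minus E9.5 (-0.46 to 0.49), d6F minus d6M (-0.68 to 0.12) and d6M minus E9.5 (-0.18 to 0.77); and for Foxc2 in d6F minus d6M (-0.29 to 1.20).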
